A study of Arabidopsis thaliana with 48 samples.

Results

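N6-methyladenosine (m6A) is a methyl mark on adenosines inside mRNA. In plants it is set by a methyltransferase complex built around MTA, removed by demethylases of the ALKBH family and read by YTH-domain proteins named ECT, and it lies mostly near the 3′ end of transcripts. Its readers are known to bear on the stability, polyadenylation and translation of the transcripts they bind. The comparison described here is that of m6A peaks between drought and regular watering in wild-type Arabidopsis thaliana of the ecotype Col-0 (WT).

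The plants were 17 days old when 1 group was left without water for 12 days and the other, called control here and watered in the plots, was watered as before. Rosette leaves were taken from both. Poly(A) RNA was fragmented and precipitated with an antibody against m6A, and the authors deposited 1 list of peaks per library and strand. There were 3 m6A libraries per regime, 6 of the 48 libraries of the series, which also holds mRNA, polysomal and uncapped RNA libraries and the line mta ABI3:MTA, an mta mutant in which MTA is supplied from the embryo-active ABI3 promoter, so that the mutation shows after embryogenesis. The mRNA libraries are the fragmented RNA kept back before precipitation, so the peaks and the transcript levels below come from the same RNA. Nothing in the labels ties the 3 replicates of a group to different plants, so p-values measure the spread between these libraries, which may be technical.

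Peaks of the 3 libraries of a regime were merged by strand, and a merged region counted when at least 2 of the 3 libraries held it. This gave 11632 drought regions and 10741 control regions. A drought-only region had no overlapping peak in any control library, and a control-only region none in any drought library. Absence of a peak says that the peak caller passed nothing there, not that the adenosine was unmethylated. The depth of the m6A libraries is unknown.

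The 3 drought lists held 11805, 11641 and 12065 peaks. The control lists held 11647, 12228 and 8269 peaks, so control replicate 3 stood apart with a shorter list. Its mRNA library was also the shallowest, with 1504013 counts against 3763355 to 5445693 in the other 5 WT mRNA libraries, and 11.7% of its counts were plastid against 2.87% to 3.98%. The mean number of peaks was 11837 ± 214 (SD, n = 3) under drought and 10715 ± 2140 (SD, n = 3) in control, a difference within the spread between libraries (exact permutation test, two-sided, p = 0.8, with 0.1 the smallest p that 3 against 3 allows). Without control replicate 3 the difference turned to -100.5 peaks. The leaf label was checked by 29 photosynthesis genes, which summed to 70400 to 76800 CPM in the control libraries, CPM being the reads of a gene scaled to a common library total. These genes summed to 16500 to 16800 CPM under drought, while 5 seed markers stayed at or below 0.675 CPM in all 6 libraries. The summed level of 3 root markers was 119 to 139 CPM in control and 32.4 to 35.4 CPM under drought, with 2 of the 3 at 0 throughout, and that of 7 guard cell markers was 51.7 to 64.0 and 75.2 to 86.7 CPM. Flower and meristem markers, 6 genes, summed to 35.2 to 38.4 and 10.0 to 12.8 CPM, and 6 vascular markers to 451 to 509 and 441 to 510 CPM, which overlap. The part of cell makeup in the results was not tested, and in these bulk samples fewer cells of a type and less RNA per cell cannot be told apart.

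To set the regimes beside the replicate error, the 6 lists were cut to the 8269 peaks with the smallest p-value and compared pair by pair. Pairs of control libraries shared 79.3% to 82.7% of a list and pairs of drought libraries shared 81.8% to 83.9%. A control and a drought library shared 76.0% to 79.2%, with a median of 77.8%. Libraries of different regimes thus overlapped less than libraries of the same regime in every pair, but the gap between the closest pairs, 79.2% and 79.3%, was small beside the spread. The 15 pairs reuse the same 6 libraries and were not tested.

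**Figure D1:**
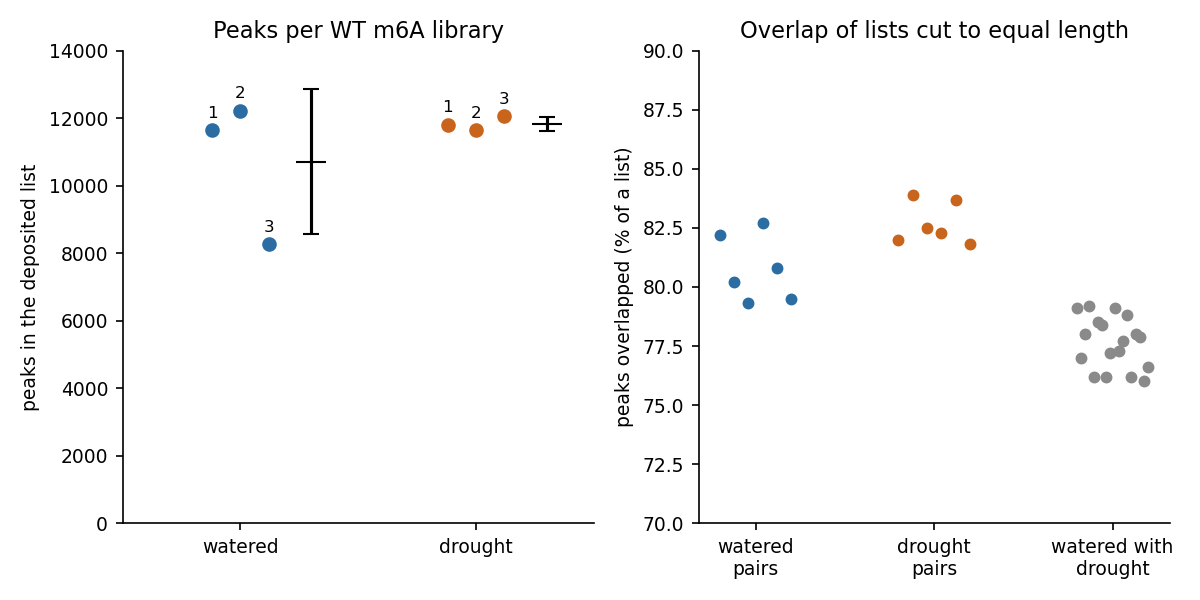
Left, number of peaks in each of the 6 WT m6A lists, numbered by replicate, with mean and SD beside them; control replicate 3 lies at 8269 and the other libraries between 11641 and 12228. Right, percent of a list overlapped by a peak of another library after cutting the lists to equal length, 2 points per pair, with the axis starting at 70%; the pairs between regimes lie lowest, at 76.0% to 79.2%.

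Most regions were held in both regimes. Of the 11632 drought regions, 7524 were overlapped by peaks of all 3 control libraries, 2112 by peaks of 2, 953 by peaks of 1 and 1043 (8.97%) by none. Of the 10741 control regions, 8976 were overlapped by all 3 drought libraries, 696 by 2, 392 by 1 and 677 (6.3%) by none. All 3 libraries held 508 of the 1043 drought-only regions and 187 of the 677 control-only regions. Without control replicate 3 there were 1076 drought-only and 629 control-only regions. That setting sets 2 control against 3 drought libraries under the same rule, which by itself favours drought-only regions. It therefore cannot show an excess. When every WT list was cut to the same number of peaks, 668 drought-only and 680 control-only regions were found, with no excess of drought-only regions. Leaving out control replicate 2 gave 1630 drought-only regions, and leaving out drought replicate 1 or 3 gave 691 or 650. Control-only regions numbered 198 without control replicate 2 and 226 without control replicate 1.

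The regime-only regions were smaller and weaker than the regions with peaks in 2 or 3 libraries of the other regime. Their median width was 136 nt for drought-only and 139 nt for control-only regions, against 220 nt for drought regions with peaks in 2 or 3 control libraries. All 3 drought libraries held 8954 of the latter 9636 regions, against 508 of the 1043 drought-only ones. A merged region can widen with each library that holds it, and that part was not tested. The authors' fold enrichment, the rise over background at the summit as the peak caller gave it, had a median of 4.83 in drought-only regions and of 6.38 in the shared drought regions. Within the control lists it was 5.10 in control-only and 6.18 in shared regions. The median −log10 q was 5.70 against 10.9 in the drought lists and 6.29 against 10.1 in the control lists. Drought regions with a peak in 1 control library were close to the drought-only ones, at 152 nt, 5.0 and 6.22. Control regions with a peak in 1 drought library were close to the control-only ones, at 146 nt, 5.07 and 6.37. Peaks at the threshold of a list are the ones most easily missed in another, and the part of peak strength in these counts was not tested.

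Drought-only regions lay on 867 genes and control-only regions on 623 genes, counting the gene of the same strand with the largest overlap. A single gene had both kinds. Transcripts of most of the genes moved with the regions. Genes with a drought-only region had higher mRNA under drought more often than not, and genes with a control-only region had lower mRNA in 568 of 623 cases by their mean CPM. By the same measure 612 of the 867 genes with a drought-only region (70.6%) were higher under drought, against 47.3% of the 22046 genes with any count. The median level of the genes with a control-only region was 17.1 CPM in control and 2.85 CPM under drought, and 400 of them were under 5 CPM under drought. The median of the genes with a drought-only region went from 13.5 to 24 CPM.

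The tested genes showed the same with their errors. In the mRNA libraries 12000 of 17666 genes (67.9%) differed between the regimes by edgeR's quasi-likelihood test at a Benjamini-Hochberg adjusted p under 0.05, 32.6% higher and 35.3% lower under drought, and the median log2 fold change over all of them was -0.01. Of 846 tested genes with a drought-only region, 465 rose (55%) and 198 fell (23.4%), and their median log2 fold change was 0.57. Of 608 tested genes with a control-only region, 37 rose (6.09%) and 516 fell (84.9%), with a median of -2.25. Genes of the drought regions shared with 2 or 3 control libraries rose in 40.4% and fell in 23.2% of 8949 cases, with a median of 0.19. A gene passes the filter on low counts through the regime in which it is high, so these shares describe the tested genes and support no further reading. With lists of equal length the median of genes with a control-only region was -1.22, and that of genes with a drought-only region stayed at 0.57.

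**Figure D2:**
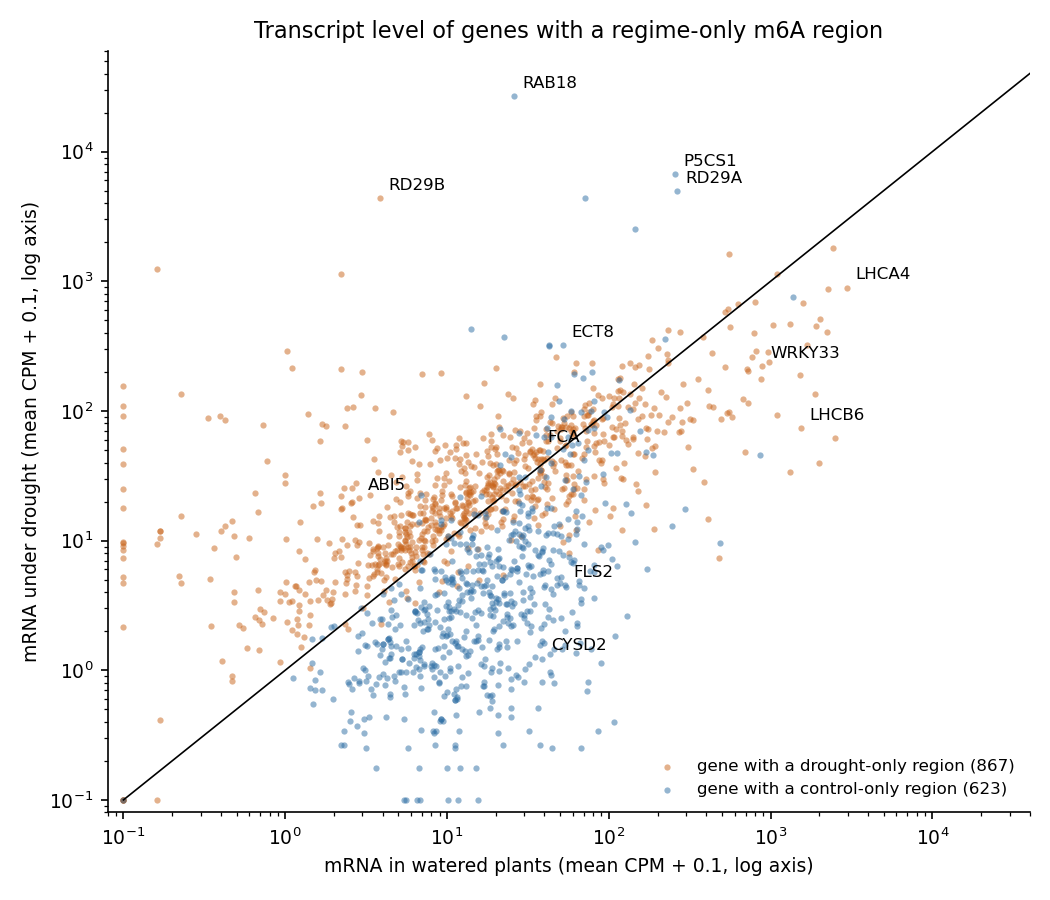
Mean mRNA level of each gene with a drought-only region (orange) or a control-only region (blue), in CPM plus 0.1 on log axes, control on the x axis and drought on the y axis, 3 libraries each. Most blue points lie below the line of equal level, while orange points lie on both sides of it, with RAB18, P5CS1 and RD29A above the line among the blue and LHCA4, LHCB6 and WRKY33 below it among the orange.

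The share of regions that were regime-only was highest where the transcript was much lower in the other regime. Among drought regions on genes whose mRNA rose over 4-fold, 145 of 341 (42.5%) were drought-only, against 439 of 8487 (5.17%) on genes within 2-fold. Among control regions on genes whose mRNA fell over 4-fold, 361 of 590 (61.2%) were control-only, against 102 of 7746 (1.32%) on genes within 2-fold. Where the transcript was under 1 CPM in the other regime, nearly every region was regime-only, 62 of 65 drought regions and 137 of 141 control regions. At 20 to 100 CPM in the other regime the shares were 4.29% and 0.961%. At 100 CPM or more the share was 10.3% of 1362 drought regions, above the 7.63% at 5 to 20 CPM, and 1.56% of 1472 control regions. A change of the mark and a change of the transcript cannot be told apart from these peak lists.

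The opposite corner was also filled. Of the 244 drought regions on genes whose mRNA fell over 4-fold, 48 (19.7%) were drought-only, more than the 5.17% on genes within 2-fold. Of the 174 control regions on genes whose mRNA rose over 4-fold, 10 (5.75%) were control-only. In all, 126 drought-only regions lay on 121 genes that fell over 2-fold, and these were abundant transcripts, with a median of 174 CPM in control and 41.9 CPM under drought. The 19 control-only regions on genes that rose over 2-fold had medians of 47.8 and 315 CPM. In both sets a region sat on the regime with less of the transcript. Their enrichments ranked low, with a median of the lowest within-library percentile of 11.6 and 7.27, against 21.3 for the 304 drought-only regions on genes that rose over 2-fold and 26.6 for the 512 control-only regions on genes that fell over 2-fold. How the abundance of a transcript bears on the calling of its peaks was not tested.

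**Figure D3:**
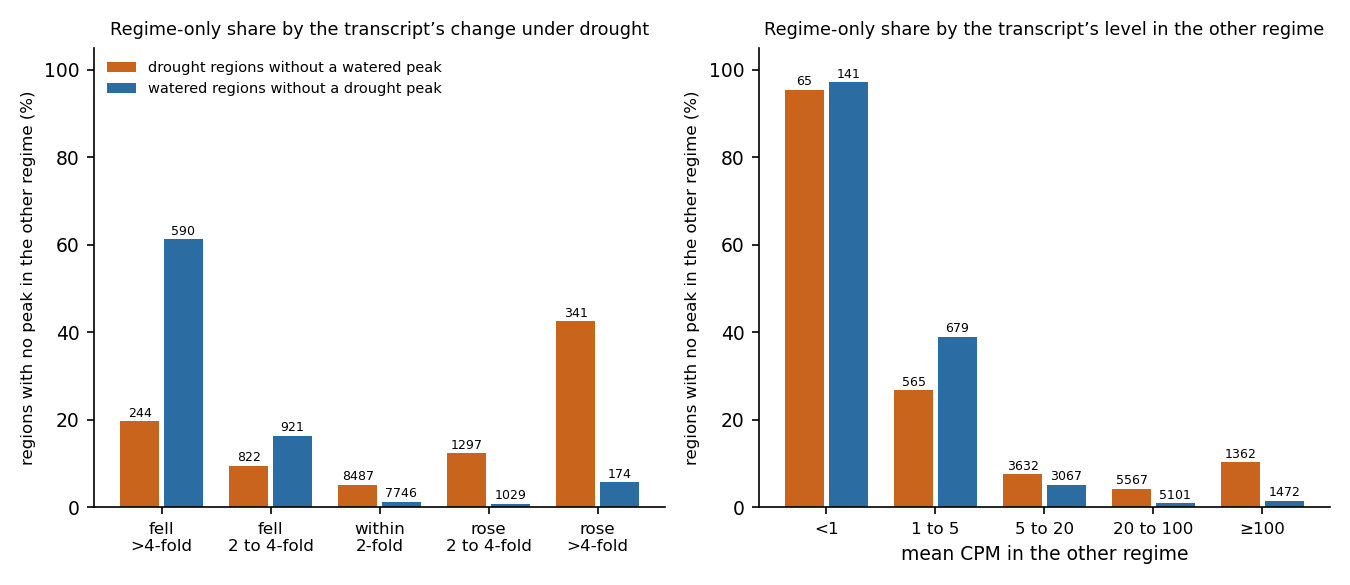
Percent of drought regions (orange) and control regions (blue) with no peak in any library of the other regime, left by the change of the gene's mRNA under drought and right by its mean CPM in the other regime; the number of regions stands above each bar. Orange bars are high at both ends of the left panel, 19.7% and 42.5%, and both colours exceed 95% where the transcript was under 1 CPM in the other regime.

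Drought and abscisic acid (ABA) induced proteins showed the second pattern. ABA is the hormone that closes stomata and turns on dehydration genes. Of 23 listed members 22 rose and 1 fell in mRNA (median log2 fold change 2.83), yet 4 had a control-only region and 1 a drought-only region, and 15 had no WT region. Over all tested genes 32.6% rose and 35.3% fell in mRNA. A WT region lay on 62.9% of all tested genes, a control-only one on 3.44% and a drought-only one on 4.79%. RAB18, a dehydrin, was at 25.8, 22.6 and 29.4 CPM in the 3 control libraries and at 26400, 26900 and 27200 CPM under drought (log2 fold change 10.04 ± 0.13 (SE), edgeR adjusted p = 5.28e-23). Its region at chr5:26518583-26518722 on the minus strand of TAIR10 was held by control replicates 1 and 2, with fold enrichments of 2.77 and 3.00, and by none of the drought libraries. The region was thus held where the transcript was scarce.

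RD29A, a hydrophilic protein of the dehydration response, had a control-only region at chr5:21242914-21243202 on the plus strand, held by all 3 control libraries with fold enrichments of 2.98, 1.92 and 2.66. Its mRNA was at 256, 278 and 263 CPM in control and at 5010, 5060 and 4740 CPM under drought (log2 fold change 4.21 ± 0.09 (SE), edgeR adjusted p = 3.56e-20). COR15A, a chloroplast protein that protects membranes from freezing and drying, had one in control replicates 1 and 3, while its mRNA rose from a mean of 71.6 to 4413 CPM. The fold enrichments of the COR15A region were 2.81 and 3.02. RD20, a caleosin of lipid droplets named here after its values were seen, also had a control-only region, at 42.6 and 315 CPM. RD29B, which neighbours RD29A, was the drought-only member. Its region at chr5:21239064-21239330 was held by drought replicates 1 and 3 with fold enrichments of 1.77 and 2.18, the former the lowest of that library's list, and its mRNA went from 2.89, 2.83 and 5.59 CPM to 4320, 4600 and 4150 CPM.

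In proline synthesis, P5CS1 and P5CS2 had a control-only region on a rising transcript. Proline gathers in leaves under drought, and these enzymes make the first committed step. P5CR, which makes the last step, also rose (log2 fold change 1.79) and had a shared region and no control-only one. P5CS1 had a control-only region near its 3′ end at chr2:16598244-16598593, held by all 3 control libraries, while its mRNA rose from 272, 264 and 236 CPM to 6750, 6690 and 6630 CPM (log2 fold change 4.70 ± 0.09 (SE), edgeR adjusted p = 1.2e-20). P5CS2 had one at chr3:20624057-20624399, also in all 3 control libraries, and rose from 150, 148 and 140 CPM to 2560, 2490 and 2520 CPM. Both regions were held by the 3 watered mta libraries, and by 0 and 1 of the mta drought libraries. Their fold enrichments were low, at 2.96, 2.42 and 2.89 for P5CS1 and 4.56, 3.89 and 3.51 for P5CS2. These ranked as low as the 2.02 and 7.27 percentile of a list. ERD5, the proline dehydrogenase that breaks proline down, stood on the other side. It fell from a mean of 90.3 to 42.0 CPM (log2 fold change -1.11 ± 0.11 (SE), edgeR adjusted p = 1.01e-08) and had a drought-only region at 95.2% of its span in drought replicates 1 and 3.

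Photosynthesis genes mirrored this. All 29 listed members fell in mRNA (median log2 fold change -2.08), against 35.3% of all tested genes. Of these, 8 had a drought-only region and none a control-only region, against 4.79% and 3.44% of all tested genes. A WT region of any kind lay on 13 of the 29, against 62.9% of all tested genes, and a shared one on 6. Among all drought regions on genes of at least 100 CPM in control, 10.3% were drought-only. LHCB6, a light-harvesting protein of photosystem II, was at 1590, 1600 and 1400 CPM in control and at 79.4, 63.6 and 77.5 CPM under drought (log2 fold change -4.38 ± 0.12 (SE), edgeR adjusted p = 1.85e-18). Its region at chr1:5446571-5446684 on the minus strand was held by all 3 drought libraries with fold enrichments of 4.49, 4.92 and 4.98. LHCA1, of the antenna of photosystem I, had one at chr3:20339542-20339758 in all 3 drought libraries, with fold enrichments of 2.34, 2.02 and 2.26 that ranked as low as the 0.593 percentile of a list, and fell from 2000, 1990 and 1730 CPM to 440, 445 and 473 CPM. GAPB, of the Calvin cycle, had one in all 3 drought libraries and fell from 828, 783 and 745 CPM to 412, 383 and 406 CPM. The fold enrichments of its region, 2.25, 2.08 and 2.04, ranked as low as the 0.754 percentile of a list. The other 5, named after their values were seen, were RBCS1B, LHCA4, PSAD-1, FBA2 and PRK. The log2 fold changes of their mRNA were -3.86, -1.74, -2.40, -1.22 and -2.03, each past the threshold.

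The aquaporins PIP1B and PIP3, water channels of the plasma membrane, also had a drought-only region on falling transcripts. Of 16 tested aquaporins 2 rose and 13 fell, against 32.6% and 35.3% of all tested genes. Of 17 listed, 4 had a WT region and 2 a drought-only one, against 62.9% and 4.79% of all tested genes. PIP1B fell from 827, 819 and 792 CPM to 301, 293 and 277 CPM, and its region was held by drought replicates 1 and 2. PIP3 fell from 346, 332 and 393 CPM to 176, 180 and 174 CPM, with a region in drought replicates 1 and 3. The fold enrichments of the PIP1B and PIP3 regions ranked as low as the 3.56 and 5.1 percentile of a list.

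Of 21 listed genes of the salicylate and immune response 6 had a WT region, against 62.9% of all tested genes. A control-only region lay on 2 and a drought-only region on 2, against 3.44% and 4.79% of all tested genes. In mRNA 3 of the 21 rose and 15 fell, against 32.6% and 35.3% of all tested genes. FLS2, the receptor of bacterial flagellin, had a control-only region at chr5:18795363-18795516 in all 3 control libraries, with fold enrichments of 9.02, 9.51 and 7.70, and fell from 48.7, 50.5 and 62.2 CPM to 7.28, 2.47 and 3.60 CPM (log2 fold change -3.51 ± 0.22 (SE), edgeR adjusted p = 4.25e-12). No mta library held this control-only region. ICS1, which makes the precursor of salicylate and is listed as EDS16 in the annotation, had one in control replicates 1 and 2 and fell from a mean of 26.9 to 5.77 CPM. WRKY33, a transcription factor of defence, instead had 2 drought-only regions, in the third and the fourth 20% of its span, while falling from 907, 852 and 902 CPM to 211, 236 and 216 CPM. These 2 drought-only regions ranked as low as the 10.6 and 1.85 percentile of a list. BIK1, a kinase that acts with FLS2, had one in drought replicates 2 and 3 and fell from a mean of 51.4 to 25.0 CPM.

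In ABA signalling, 37 genes were listed and 33 were tested. Of these, 24 rose and 6 fell in mRNA, against 32.6% and 35.3% of all tested genes. ABI5, a bZIP factor of the ABA response, had 2 drought-only regions, and its mRNA rose from 2.89, 4.04 and 1.40 CPM to 20.0, 21.1 and 22.3 CPM (log2 fold change 2.73 ± 0.23 (SE), edgeR adjusted p = 8.8e-10). Its region nearest the 3′ end was held by drought replicates 1 and 3 and by all 3 mta drought libraries. No mta library held its other region. The ABA receptors PYL1 and PYL8 both fell, with log2 fold changes of -1.60 and -1.55, but PYL1 had a control-only region and PYL8, listed as RCAR3, a drought-only region beside a shared one. The PYL1 region ranked as low as the 4.75 percentile of a control list. All 3 watered and all 3 drought mta libraries held it, and none held the drought-only region of PYL8. Of 19 listed stress factors 2 had a WT region, against 62.9% of all tested genes. A drought-only region lay on 4.79% of all tested genes and a control-only one on 3.44%. DREB2A, a transcription factor of dehydration, was the only one of the 19 stress factors with a regime-only region. It lay in the first 20% of its span, was held by drought replicates 1 and 3, and the mRNA rose from 20.7, 22.2 and 28.0 CPM to 133, 137 and 136 CPM.

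Of 17 listed heat shock genes 2 had a drought-only and 1 a control-only region, against 4.79% and 3.44% of all tested genes. HSP22.0, a small heat shock protein, had no count in any of the 3 control libraries and was at 8.65, 8.23 and 11.9 CPM under drought, at least 37.3-fold higher against a limit of 3 counts over the 3 control libraries. Its drought-only region was held by all 3 drought libraries. HSP70 rose from 13.0, 13.3 and 15.4 CPM to 444, 448 and 404 CPM and had a control-only region in control replicates 1 and 2. HSFA1A, a heat shock factor listed as HSF1, had a drought-only region in drought replicates 1 and 3 at a small change of mRNA (log2 fold change 0.59 ± 0.24 (SE), edgeR adjusted p = 0.0342), a call that 6 of the 11 alternatives lost.

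Genes of the m6A machinery also carried regions, beside 62.9% of all tested genes with one and 3.44% with a control-only one. The writers MTA, FIP37 and FIO1 each had a region shared by the regimes, and none of the 3 passed the test in mRNA. MTA was at 17.7 to 18.9 CPM in control and at 18.9 to 25.9 CPM under drought (log2 fold change 0.36 ± 0.16 (SE), edgeR adjusted p = 0.0542). The 12 readers were the ECT proteins and CPSF30, a polyadenylation factor with a YTH domain in its long form. Of these, 4 rose and 4 fell in mRNA, against 32.6% and 35.3% of all tested genes. A region lay on 11 of the readers and a shared one on 7. ECT6, ECT8, ECT9 and ECT11 had a control-only region and no other. ECT6 fell from 27.2, 28.1 and 39.8 CPM to 3.87, 8.78 and 6.53 CPM (log2 fold change -2.25 ± 0.25 (SE), edgeR adjusted p = 4.39e-08). ECT8 rose from 50.3, 59.0 and 46.1 CPM to 307, 334 and 324 CPM (log2 fold change 2.61 ± 0.11 (SE), edgeR adjusted p = 2.41e-15), and its region at chr1:29818750-29818906 was held by all 3 WT control libraries and no WT drought library. In the mta line 1 drought library and no watered one held the ECT8 region. ECT2, at a mean of 526 and 578 CPM with no call in mRNA (edgeR adjusted p = 0.289), had a shared region at 89.9% of its span and a drought-only one at 54.3%. The latter ranked as low as the 1.59 percentile of a drought list.

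Transcripts present in both regimes held most of the drought-only regions on genes and the minority of the control-only ones. Genes of at least 5 CPM in both held 648 of 890 drought-only and 231 of 649 control-only regions, on 630 and 223 genes. Of these 630 genes 292 rose (46.3%) and 192 fell, against 38% and 28.7% of the 12572 genes present in both regimes. Of the 223, 37 rose and 149 fell (66.8%). Counting by change instead, 439 drought-only and 102 control-only regions lay on genes within 2-fold.

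Of the 8 highest ranked drought-only regions on transcripts present in both regimes, 6 lay on genes that rose, 1 on a gene that fell and 1 on a gene with no call. CCB4, an assembly factor of the cytochrome b6f complex, had one at chr1:22028632-22028872 in all 3 drought libraries, with fold enrichments of 6.44, 6.99 and 6.37, while its mRNA was at 15.9, 15.3 and 20.3 CPM in control and 13.7, 15.4 and 11.5 CPM under drought (edgeR adjusted p = 0.164). FCA, an RNA-binding protein that promotes flowering, had one at chr4:9213205-9213331 on the minus strand, at 20.8% of its span, with fold enrichments of 7.76, 6.47 and 7.68, beside a region shared by the regimes. Its mRNA was at 31.6, 31.9 and 46.8 CPM in control and at 54.6, 43.9 and 50.9 CPM under drought (log2 fold change 0.52 ± 0.15 (SE), edgeR adjusted p = 0.00326). RPN13, a ubiquitin receptor of the proteasome, had one at 41.1% of its span, again beside a shared region, and rose by 0.77 on the log2 scale. PERK9, a receptor-like kinase, had one at 91.2% and fell by 0.65. HMT3, a homocysteine methyltransferase, rose from 21.8, 24.2 and 20.3 CPM to 63.5, 62.8 and 68.7 CPM, and its region near the 3′ end was held by all 3 drought libraries, all 3 mta drought libraries and no watered mta library. AT3G06240, AT3G20490 and AT3G45830 complete the 8 that ranked highest, and their mRNA rose by log2 fold changes of 0.54, 1.41 and 0.97. The regions of CCB4, PERK9, AT3G06240 and AT3G20490 were held by no mta library. Those of RPN13 and FCA were held by 2 and 1 mta drought libraries, and that of AT3G45830 by 1 watered mta library alone.

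The 8 control-only counterparts all lay on falling transcripts. REF6, a histone demethylase, had one at 96.8% of its span in all 3 control libraries, with fold enrichments of 6.27, 5.48 and 6.20. Its mRNA was at 24.9, 33.9 and 36.3 CPM in control and at 15.5, 16.2 and 17.1 CPM under drought (log2 fold change -0.91 ± 0.19 (SE), edgeR adjusted p = 0.000183). TBL39 had one at 9.38, 9.29 and 6.29 CPM in control and 5.69, 5.21 and 6.30 CPM under drought, a fall (log2 fold change -0.62 ± 0.22 (SE), edgeR adjusted p = 0.0191) that 4 alternatives lost. ORP1D, BGLU40, NPC6, AT2G37050, AT4G36180 and AT5G18700 fell, with log2 fold changes of -2.18, -1.46, -1.78, -2.15, -2.65 and -1.64. The region of NPC6, a phospholipase C, lay at 11.2% of its span and the others at 92.7% to 97.9%.

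On transcripts under 5 CPM in a regime the best regions ranked higher in their lists. CYSD2, a cysteine synthase, had a control-only region at chr5:10026205-10026455 on the minus strand with fold enrichments of 9.65, 9.06 and 9.90, and fell from 37.7, 41.4 and 37.0 CPM to 1.59, 0 and 1.80 CPM (log2 fold change -4.99 ± 0.29 (SE), edgeR adjusted p = 1.04e-12). AAE14, an enzyme of phylloquinone synthesis, TED7 and the trehalose phosphatase ATTPPA had one each, at percentiles of at least 87.1 in every control list. All 3 mta control libraries held the 4 regions, and 1 mta drought library each held those of TED7 and ATTPPA. BZIP24, a transcription factor, had a drought-only region and rose from 2.71, 3.43 and 1.40 CPM to 14.3, 14.5 and 16.2 CPM. The gene AT2G18540 had no count in the control libraries, was at 8.19, 11.8 and 8.33 CPM under drought, and had a drought-only region on each strand. It was at least 36.7-fold higher under drought against the same limit as for HSP22.0. AT1G23450 and AT3G05190 rose by 2.59 and 1.90 on the log2 scale, and all 3 mta drought libraries and no mta control library held their drought-only regions. The region of BZIP24 was held by 1 mta drought library and the sense region of AT2G18540 by 2.

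Along the gene, the regime-only regions lay less often at the 3′ end than regions with peaks in 2 or 3 libraries of the other regime. By the highest summit, 61.6% of the 890 drought-only and 64.9% of the 649 control-only regions on genes lay in the last 20% of the span, against 86.1% of the 9465 drought regions with peaks in 2 or 3 control libraries. In the first 20% lay 9.21%, 9.55% and 2.91%. This place was not limited to regime-only regions. Drought regions with a peak in 1 control library had 66.6% in the last 20% and 8.86% in the first. Control regions with a peak in 1 drought library had 70.2% and 10.2%. The 2 kinds of regime-only region lay close to each other here and in fold enrichment, and the part of peak strength in their place was not tested. Over all peaks of a library, 82.6%, 79.5% and 81.8% lay in the last 20% of the span under drought and 79.6%, 82.2% and 86.7% in control, which overlap (exact permutation test, two-sided, p = 0.6). The first 20% held 4.24% ± 0.621 (SD, n = 3) under drought and 4.05% ± 1.19 (SD, n = 3) in control (exact permutation test, two-sided, p = 1.0).

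**Figure D4:**
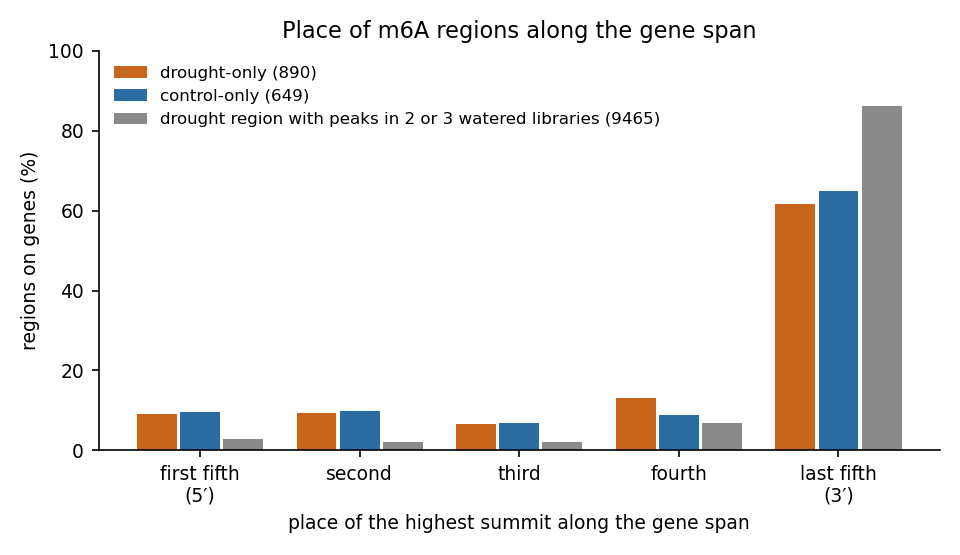
Percent of regions on genes in each 20% of the gene span from 5′ to 3′, introns included, for drought-only regions (orange), control-only regions (blue) and drought regions with peaks in 2 or 3 control libraries (grey). The last bin holds 61.6%, 64.9% and 86.1%.

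A minority of the drought-only regions lay on a gene with a further, shared region. Of the 890 on genes, 203 (22.8%) lay on a gene that also had a region shared with the other regime, and 53 of these 203 were in the first 20% of the span. Shared here means a peak in at least 1 library of the other regime. Of those on a gene with no shared region, 29 were in the first 20% and 492 in the last. Among control-only regions 69 of 649 (10.6%) lay on a gene with a shared region, 22 of them in the first 20%. On transcripts present in both regimes the shares were close, 30.1% for drought-only and 28.6% for control-only regions. Of all 12572 genes present in both regimes, 8454 had a drought region with peaks in 2 or 3 control libraries. This is a larger part even for that narrower kind of shared region, though it counts genes and the shares above count regions. STM, a meristem factor, and PAB4, a poly(A)-binding protein, had their control-only region at 19.0% and 9.0% of the span beside a shared one. All 3 watered and all 3 drought mta libraries held the control-only region of PAB4, and none held that of STM. The gene with both kinds was AT1G18610, with a control-only region at 86.0% and a drought-only one at 91.2% of its span and little change of mRNA (log2 fold change 0.24 ± 0.28 (SE), edgeR adjusted p = 0.464).

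Drought-only regions lay outside same-strand gene spans more often than others. This was the case for 153 of 1043 drought-only regions (14.7%), 28 of 677 control-only regions (4.14%) and 171 of the 9636 drought regions with peaks in 2 or 3 control libraries (1.77%). Over all peaks the share outside gene spans was 3.51%, 3.38% and 3.56% in the drought libraries and 2.46%, 2.36% and 1.39% in the control libraries, so that every drought library lay above every control library. The difference of 1.42 percentage points had the smallest p that 3 against 3 allows (exact permutation test, two-sided, p = 0.1), and this comparison was chosen after the values were seen. In the mta line the shares were 3.36%, 2.65% and 3.51% in control and 2.64%, 2.23% and 3.07% under drought, with the groups overlapping.

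Of the 153 drought-only regions outside gene spans, 69 lay antisense to a gene, 27 on an annotated noncoding RNA, 17 within 1000 nt downstream of a gene and 40 elsewhere. Of the 28 control-only regions, 12 were antisense. With lists of equal length, 70 of 668 drought-only regions (10.5%) and 24 of 680 control-only regions (3.53%) lay outside gene spans, 28 and 11 of them antisense. The sense genes of the 69 were 66. Of the 54 regions whose sense gene was tested, 25 had a sense gene that rose and 17 one that fell. Over all tested genes 32.6% rose and 35.3% fell. A peak on the opposite strand, in the same drought libraries, overlapped 22 of the 69. The library kit keeps strand, and how much of the signal on one strand comes from the other was not tested.

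The strongest of them lay opposite AT5G35660, at chr5:13852599-13853163 on the plus strand. Its fold enrichments of 20.7, 21.4 and 19.6 put it at the top of all 3 drought lists, and all 3 mta drought libraries and no mta control library held it. The sense gene had no count in control and was at 170, 153 and 146 CPM under drought, at least 608-fold higher. AT3G17520 had an antisense region at chr3:5999636-5999753 in all 3 drought libraries, and its mRNA went from 0.361, 0 and 0.699 CPM to 1550, 1770 and 1610 CPM. HAI2, a phosphatase that restrains ABA signalling, had one at chr1:2281286-2281387 and rose from 12.1, 13.9 and 6.99 CPM to 215, 224 and 181 CPM. RD29A had one at chr5:21242894-21243108 on the minus strand, in all 3 drought libraries with fold enrichments of 8.67, 6.26 and 7.68. It overlaps the control-only region on the plus strand given above, so that at this place the WT control libraries held a sense region and the WT drought libraries an antisense one. No mta library held the antisense region, while all 3 mta control and all 3 mta drought libraries held the sense region.

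Opposite AT2G23360 the sense gene fell from 11.5, 13.1 and 16.8 CPM to 1.59, 4.39 and 1.13 CPM under an antisense region of fold enrichments of 10.0, 10.6 and 9.48. Regions of both directions of the sense gene were thus among those of high rank. On noncoding RNAs the highest ranked was AT1G29357, at chr1:10274138-10274301, with fold enrichments of 8.60, 8.02 and 7.32 and no mta library. Of the regions elsewhere, 3 stood side by side on the minus strand of chromosome 1 between 10357335 and 10363281, each held by all 3 drought libraries.

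The mta line offered libraries that the choice of regions had not used. Control-only WT regions were held by 51.3%, 35.2% and 62.3% in the 3 watered mta libraries and by 10.6%, 9.31% and 16.5% in the mta drought libraries. The groups did not overlap (means 49.6% ± 13.7 and 12.2% ± 3.85 (SD, n = 3), exact permutation test, two-sided, p = 0.1, the smallest possible). Drought-only WT regions were held by 18.4%, 13.7% and 21.5% in the watered and by 19.6%, 17.5% and 32.1% in the drought mta libraries, which overlap (exact permutation test, two-sided, p = 0.5). Regions of all 6 WT libraries were held at 75.2% to 94.0% and 78.2% to 92.1%.

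The mta lists differ in length, and with each cut to 7746 peaks the shares drew together within groups. Control-only regions were then held at 33.4% to 34.7% in watered and at 8.12% to 9.31% in drought mta libraries. Drought-only regions were held at 10.2% to 11.5% and at 16.2% to 18.7%, groups that no longer overlap. Regions of all 6 WT libraries separated the same way, at 71.8% to 74.7% in watered and 78.1% to 79.1% in drought mta libraries, so this order was not limited to drought-only regions. No mta library held 580 of the 1043 drought-only regions (55.6%) and 202 of the 677 control-only regions (29.8%). These plants differ from WT in MTA as well, and a region held by no mta library was not assigned to either.

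**Figure D5:**
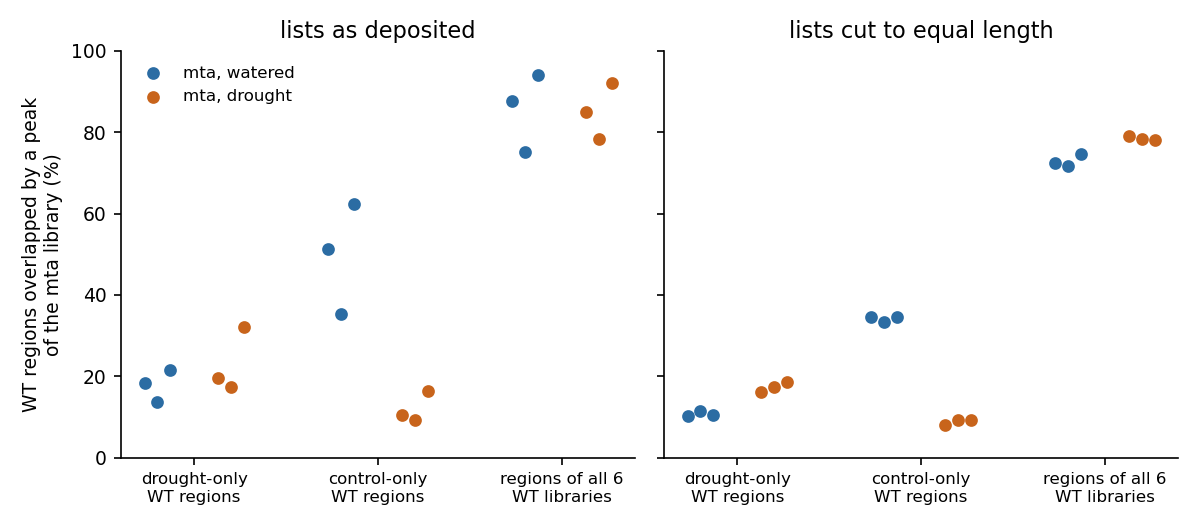
Percent of WT regions overlapped by a peak of each mta library, watered (blue) or drought (orange), with the lists as deposited (left) and cut to equal length (right). Control-only regions lie at 35.2% to 62.3% in watered and 9.31% to 16.5% in drought libraries on the left, and drought-only regions separate by regime only on the right, at 10.2% to 11.5% and 16.2% to 18.7%.

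The same genes were followed in uncapped and polysomal RNA, and the differences between them and all genes are given as a description with no test. The uncapped share is the level of RNA with a free 5′ end relative to mRNA, on the log2 scale. Of all 19142 genes tested, 4.58% changed in it under drought, 2.93% rising and 1.66% falling. Of 856 tested genes with a drought-only region 32 rose and 15 fell, with a median of -0.05 relative to that of all genes. Of 617 with a control-only region 43 rose and 8 fell, with a median of 0.23 relative to all genes. Without the mRNA library of control replicate 3 the counts were 14 and 42 for drought-only and 34 and 18 for control-only genes, while the medians relative to all genes stayed at -0.05 and 0.21. Among genes of at least 5 CPM in both regimes, 2.59% of all rose and 2.31% fell, against 31 and 11 of 630 with a drought-only region and 11 and 8 of 223 with a control-only region. This measure and the next both hold mRNA as their denominator.

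Polysome association is polysomal RNA relative to mRNA on the log2 scale. Of all 20392 genes tested, 18.8% changed, 11.8% rising and 6.93% falling, a split that turned to 1751 rising and 2065 falling under RLE scaling, which moved the median of all genes from 0.07 to -0.03. Relative to that median, genes with a drought-only region lay at 0.15 under both scalings and genes with a control-only region at -0.01. Of 861 genes with a drought-only region 169 rose and 50 fell, or 132 and 77 under RLE scaling. Among genes of at least 5 CPM in both regimes, 2215 of 12572 rose and 1234 (9.82%) fell, against 157 and 48 of 630 with a drought-only region and 42 and 15 of 223 with a control-only region. Some of the genes named above, picked here after their values were seen, were among them. DREB2A rose in it by 1.03, RD29A by 0.97 and HSP70 by 1.31 (edgeR adjusted p = 1.49e-05, 9.32e-10 and 3.04e-07), and the photosynthesis genes LHCB6 and GAPB fell by 0.60 each (edgeR adjusted p = 0.000131 and 7.34e-06). Other named genes did not follow this split. COR15A had a log2 fold change of -0.37 and P5CS1 of -0.01 (edgeR adjusted p = 0.0437 and 0.956). ERD5, whose mRNA fell, rose in polysome association by 0.77 (edgeR adjusted p = 1.73e-05).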

How the data were processed

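Deposited peak lists, 1 per strand of each library, are on TAIR10 and give the fold enrichment of a peak (a ratio), its score, and −log10 of its p-value and q-value; MACS2, STAR and featureCounts are named per the submitters' processing notes, and the background library of the peak calling is not given in the sources used here. Deposited raw counts cover whole gene spans, introns included, from featureCounts 2.0.1 (mRNA, GMUCT) and 2.0.3 (polysomal), per the file headers. CPM were computed here. Polysomal counts count both reads of a pair, so their totals overstate fragments. Reads of GMUCT, which sequences uncapped RNA, were counted without strand. Peak widths depend on depth, which is unknown, and a peak list has no value where nothing was called.

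Peaks overlapping by at least 1 base were merged by strand in Python 3.11.15. A region went to the same-strand gene with the largest overlap, and its place is that of its highest summit. Counts were scaled by TMM and tested with edgeR 4.0.16 (quasi-likelihood test, filterByExpr with a minimum count of 10 and a minimum total of 15, Benjamini-Hochberg adjustment over all genes, threshold 0.05) in a model with 1 mean per group of both genotypes; the uncapped share and polysome association were tested in a model over both kinds of library. The scripts were tested on simulated data. Alternatives for the counts were RLE scaling, DESeq2 1.42.0, no filter, WT libraries alone, a replicate block and leaving out each library. Those for the peaks were a stricter q-value, lists cut to equal length, 1 or all 3 holding libraries, an overlap of at least 50% and leaving out each library. Gene names come from a RefSeq table of assembly TAIR10.1, which held 27445 of 27655 gene IDs; 325 of 338 list members matched by symbol and the rest, all ALKBH demethylases among them, were dropped. Named regions are the 8 per direction ranked highest on genes of at least 5 CPM in both regimes, 4 on other genes (rank: the lowest of the within-library percentiles of fold enrichment, regions of all 3 libraries), up to 3 members per list and direction, the gene with both kinds, and the m6A machinery. The members, lists and rules were chosen with earlier results of these data known. No genome was used, so no sequence, motif, exon or UTR is given.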

Additional observations from a re-analysis of the deposited data

How the results depend on the processing

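Region counts depended on how many libraries had to hold a region. Drought-only and control-only regions numbered 2100 and 1791 with 1 library and 508 and 187 with all 3, and 648 and 231 on genes of at least 5 CPM in both regimes. With equal lists there were 668 drought-only regions. Leaving out an m6A library gave 650 to 1630 drought-only regions, 691 without drought replicate 1, and 198 to 850 control-only regions, 226 without control replicate 1. The median mRNA log2 fold change of genes with a drought-only region was 0.55 under RLE scaling, 0.86 with all 3 libraries, 0.36 at a −log10 q of at least 5, and 0.55 to 0.59 without 1 mRNA library. That of genes with a control-only region was -3.18, -1.72 and, with equal lists, -1.22, and -2.28 to -2.19 without 1 mRNA library. Leaving out 1 WT library moved the difference in peaks per library from -100.5 to 1879, that in the last 20% of the span from -3.20 to 0.348 percentage points and that in the first 20% from -0.419 to 0.770. These turned sign without control replicate 3 and, for the first 20%, drought replicate 2 (-0.167). Genes with a changed uncapped share numbered 1721 with no filter, 457 of them higher, and 554 to 1183 without 1 mRNA library, 566 without control replicate 1; without control replicate 3, 403 rose and 780 fell. For those with changed polysome association the range was 3105 to 3574. Without a drought library 33.5% to 35.3% of these were higher, against 63.1%, and DESeq2 gave 1929 higher and 2314 lower. The cause was not tested.

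The labels do not say whether the replicate numbers pair the samples. Correlations of deviations from the group mean were -0.00015, -0.0728 and -0.0704 for same-numbered control and drought mRNA libraries. For the other pairs they were -0.014 to 0.0875. With 3 libraries per group, of which control replicate 3 stood apart, these values cannot decide whether libraries were paired. With a replicate block 11705 genes had changed mRNA, 749 a changed uncapped share and 3668 changed polysome association. Of 65 named genes tested in mRNA, 714 pairs of gene and setting gave 688 with the same call, 11 that lost and 10 that gained it, and 5 reversals among genes with no call, which were 0.02 and 0.08 for ECT11 against -0.08, -0.01 and -0.04 for ECT7 against 0.03, and -0.01 for AT1G18610 against 0.24. The share of peak summits with a motif was not run, because no genome was used. Leaving out 1 mta library moved the difference in the share held, drought minus control, from 0.687 to 7.97 percentage points for drought-only and from -44.6 to -31.0 for control-only regions. The depth of the m6A libraries is unknown, so precision per peak is too.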
